A study of Mus musculus with 11 samples.

Results

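Imprinted genes were followed as a group of 36 known members through RNA-seq of mouse forelimb buds at embryonic stage E10.5. The members were listed by name as known imprinted mouse genes. The rule used no measured value, though earlier results of these libraries were known, and all 36 were found among the 47517 gene names of the count table. Of these, 35 had enough reads to be among the 15821 genes tested, and Rasgrf1 did not. By what is known of the allele in use, 21 members are expressed from the paternal copy and 14 from the maternal copy. The remaining member, Gnas, uses either copy or both, depending on the transcript. For some members the imprint is known from certain tissues only, placenta for Ascl2, neurons for Ube3a, brain for Rasgrf1 and some tissues for Ppp1r9a. Grb10 uses the paternal copy in neurons. All of them are kept in the allele classes below. Buds were taken from embryos of 2 genotypes on a C57BL/6 background. Control embryos were Gmnn +/f; Prx-Cre and mutant embryos were Gmnn f/f; Prx-Cre, so that both genotypes carried the Cre transgene and at least 1 floxed allele of Gmnn. Prx-Cre is active in limb bud mesenchyme, so that surface ectoderm, endothelium, blood and immigrating cells are not its main targets. Gmnn codes for Geminin, which holds back DNA replication by binding Cdt1. The libraries, 5 control and 6 mutant, came from 4 litters named A to D here. Litter A gave controls 1 and 2 and mutants 1 and 2, litter B gave control 3 and mutant 6, litter C gave control 4 and mutant 5, and litter D gave control 5 and mutants 3 and 4. The labels name litter-matched embryos but do not say how many buds entered a library, so that p-values measure only the spread between these libraries.

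Imprinting is a mark laid down in the germ line that leaves only the father's or only the mother's copy of a gene active in the offspring. The mark is DNA methylation at a control region, and it is kept through early development by the zinc finger proteins Zfp57 and Zfp445, which recruit Trim28, Setdb1 and DNA methyltransferases. Many paternally expressed members, such as Igf2, favour growth of the embryo, and many maternally expressed ones, such as Igf2r, Grb10 and Cdkn1c, restrain it. Counts per gene name add up both copies, so that the allele in use was not measured in these libraries.

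Of the members' promoters, 4 are printed to show the letters recognised by Zfp57 and their absence, and they belong to neighbouring genes described below. No result on levels, genotype or correlation uses these sequences. Each run is the 250 bases before an annotated start, 5′ to 3′ on the gene's strand, from RefSeq on GRCm38.p6, the mm10 build. Capitals mark the motif TGCCGC, the core bound by Zfp57 when methylated, or its reverse complement GCGGCA. Meg3 (chr12:109540746-109540995, plus strand) held 1 match, Rian (chr12:109603695-109603944, plus strand) and Dlk1 (chr12:109452573-109452822, plus strand) held 0, and the second annotated start of Mest (chr6:30737800-30738049, plus strand) held 2.
Meg3: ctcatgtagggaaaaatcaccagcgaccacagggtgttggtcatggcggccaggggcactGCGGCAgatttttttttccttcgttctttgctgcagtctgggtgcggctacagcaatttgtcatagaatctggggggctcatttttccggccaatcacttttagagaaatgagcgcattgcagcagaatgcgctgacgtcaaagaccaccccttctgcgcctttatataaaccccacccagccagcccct
Rian: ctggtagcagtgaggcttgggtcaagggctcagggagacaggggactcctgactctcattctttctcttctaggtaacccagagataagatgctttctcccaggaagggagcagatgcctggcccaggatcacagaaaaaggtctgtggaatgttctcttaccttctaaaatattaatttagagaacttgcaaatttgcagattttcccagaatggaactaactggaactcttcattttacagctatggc
Dlk1: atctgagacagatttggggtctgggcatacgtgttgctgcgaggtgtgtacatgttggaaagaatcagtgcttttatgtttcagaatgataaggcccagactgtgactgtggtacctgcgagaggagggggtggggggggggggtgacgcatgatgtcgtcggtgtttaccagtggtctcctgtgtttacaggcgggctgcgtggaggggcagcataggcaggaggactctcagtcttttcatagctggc
Mest: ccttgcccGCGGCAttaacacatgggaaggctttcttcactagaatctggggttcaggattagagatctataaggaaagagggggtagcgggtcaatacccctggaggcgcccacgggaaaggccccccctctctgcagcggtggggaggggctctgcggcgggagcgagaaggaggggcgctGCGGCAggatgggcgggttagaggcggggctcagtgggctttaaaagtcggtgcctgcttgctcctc
These runs differed in CpG content as well: 10 CpG for Meg3, 8 for Dlk1, 14 for Mest and 0 for Rian. A promoter entry of 300 bases (250 before to 50 after the start) was matched for 29 of the 36 members, which gave 43 promoters. On either strand, the motif was in 10 of these 43 promoters (23.3%) and in 3813 of 32851 promoters of all genes (11.6%). Counted by gene, 9 of 29 members (31.0%) and 13.1% of all genes had it. The median member promoter held 14 CpG and the median over all promoters 7. The motif itself holds a CpG, and the relation of motif count to CpG content was not tested. A match is a stretch of letters and was not measured as a bound site.

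Across the series, total counts ran from 14721181 to 19733288 per library. Gmnn was lower in mutants, at 99.5 to 138 CPM (counts per gene scaled to a common library size) against 139 to 239 CPM in controls (log2 fold change -0.67, SE 0.10, edgeR quasi-likelihood test, adjusted p 0.0291). The tissue label was checked against 8 limb mesenchyme genes, all of which were present, with Prrx1 at 199 to 313 CPM. Their summed level was 872 to 1064 CPM in controls and 765 to 910.3 CPM in mutants, but the genes did not move together. Of the 8, 4 had a log2 fold change of mutant over control above 0 and 4 below. An adjusted p under 0.05 (edgeR) was found for 2, both lower in mutants, beside 2.18% of all genes. Among the 8 muscle genes, 7 had a log2 fold change below 0 (median over the 8 of -1.93), and 3 passed the same threshold, all lower in mutants. Pax3, at 25.3 to 52.9 CPM over all libraries, was the most abundant of them in every mutant. The 8 muscle genes summed to 42.0 to 125 CPM in controls, with control 5 highest, and to 35.1 to 72.6 CPM in mutants. The 6 neural crest and Schwann precursor genes were highest in control 5 as well, at 49.2 CPM against 18.1 to 27.0 CPM elsewhere, though Foxd3 was at 0 to 0.123 CPM in every library. Red blood cell genes were highest in mutant 2, and all 7 had a log2 fold change above 0 (median 0.59). The 7 macrophage genes were all above 0 as well (median 0.53), while endothelium and surface ectoderm genes went both ways. In each of these lists 0 genes passed the threshold. A further library measure was the T-run index, the mean log2 CPM of 955 genes outside the family with a transcript that holds at least 18 T bases in a row. It was 4.44 to 4.82 in controls, where control 5 was lowest, and 4.26 to 4.63 in mutants, where mutant 5 was highest. This index was carried over from an earlier analysis of the same libraries and is given below beside the genes that move with it. In bulk tissue, fewer cells of a type and less RNA per cell cannot be told apart.

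The forelimb bud expressed most of the family, over a range of levels that spanned from 0.231 to 833 CPM per kilobase of exons (CPM per kb). The most abundant member by this length-scaled level was Nnat, which encodes neuronatin, a small membrane proteolipid, at 833 ± 133 CPM per kb (SD, n = 11). H19, a maternally expressed non-coding RNA, followed at 565 ± 46.0 CPM per kb, and Igf2, the fetal growth factor of the same locus, at 181 ± 17.03 CPM per kb. The ranges of these first 3 genes over the 11 libraries did not overlap. Mest at 174 CPM per kb, Cdkn1c at 102, Grb10 at 71.3, Snrpn at 49.6, Impact at 49.0, Peg3 at 43.2, Ndn at 38.9 and Peg10 at 32.1 came next. From Igf2 down to Ascl2, the range of every gene overlapped that of the next gene in the order.

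In all, 13 of the 35 tested members (37.1%) lay above 10 CPM per kb, against 28.0% of all genes tested. Of the 20 tested paternally expressed members 9 were above that level, with a median of 5.42 CPM per kb, and of the 14 maternally expressed ones 4 were, with a median of 3.70 CPM per kb. The median over all genes was 2.99 CPM per kb. At the low end stood Gnas at 0.340, Rtl1 at 0.317 and Ascl2, a transcription factor of the placenta, at 0.231 CPM per kb. Rasgrf1, a guanine nucleotide exchange factor imprinted in brain, had 0 to 7 reads per library. Levels of Gnas need care, because 58.5% of its exon bases from the first one shared with the antisense gene Gm20721 onwards are shared with that gene. The counting program leaves out reads that fall on exons of more than 1 gene by default. Cdkn1c and Snrpn share 30.65% and 34.1% of their exon bases with other genes. Their levels per kb, and the ratio of Cdkn1c given below, may therefore be too low.

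**Figure D1:**
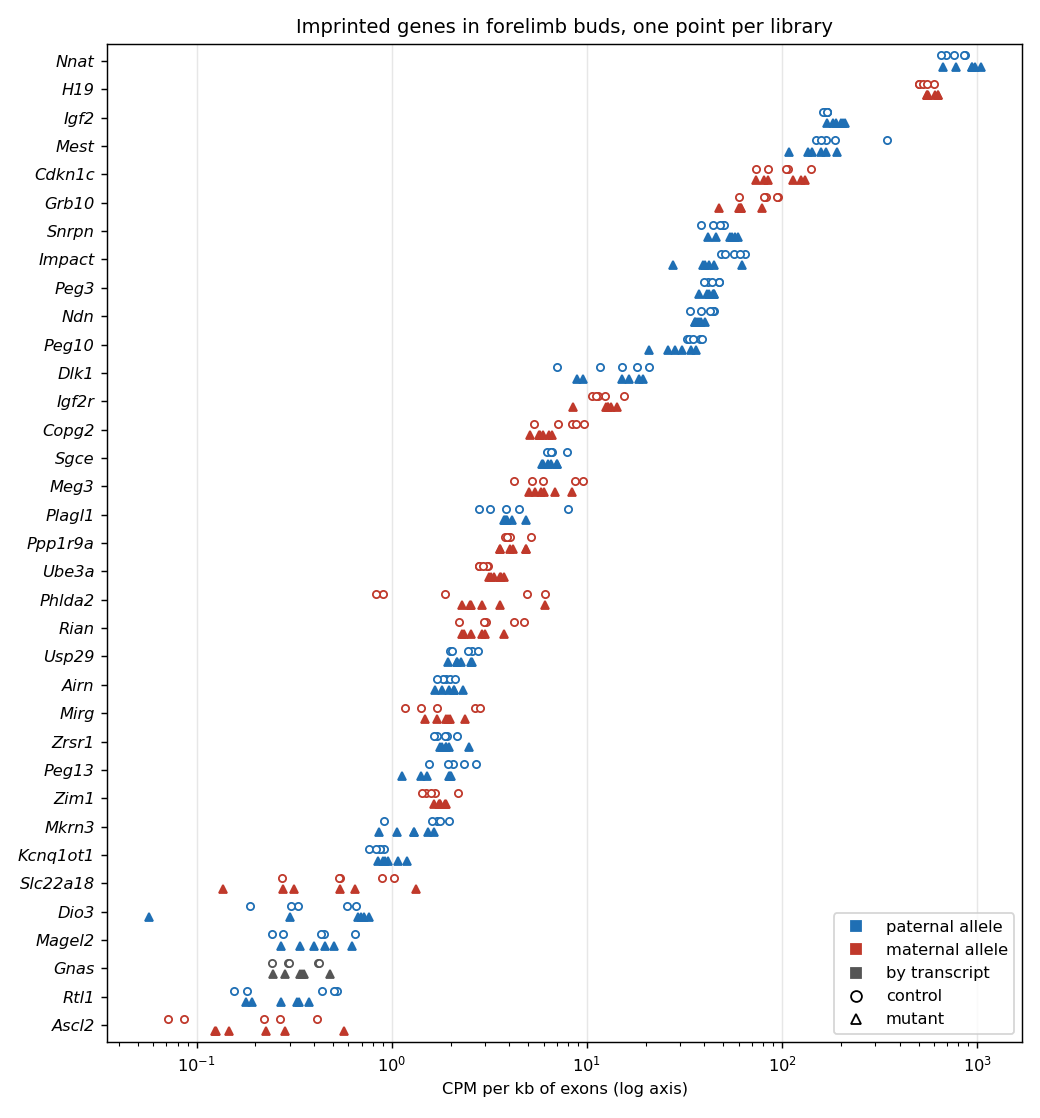
Level of the 35 tested imprinted genes in CPM per kb of exons (log axis), one point per library, open circles for the 5 controls and filled triangles for the 6 mutants, coloured by the allele known to be expressed. Nnat, H19 and Igf2 stand at the top, and both alleles are found along the whole range.

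The ratio between neighbours within a locus was examined for 7 pairs, 5 of a paternally and a maternally expressed gene and 2 of paternally expressed genes. H19 was 3.12 times Igf2 per kb on average, and this ratio was the steadiest of the 7, with log2 values of 1.56 to 1.81 over the 11 libraries. Peg3, a zinc finger gene, was 18.7 times its divergent neighbour Usp29 (log2 ratio 4.02 to 4.45). Mest, a hydrolase-like gene, was 25.0 times Copg2, a coatomer subunit gene that runs towards it from the other strand (log2 ratio 4.24 to 5.35). Cdkn1c was 108 times Kcnq1ot1, the long antisense RNA of that domain, and Igf2r, the receptor that clears Igf2, was 6.25 times Airn, the antisense RNA that starts within it. Meg3 was 0.454 of Dlk1, and this ratio was among the looser ones, from -1.70 in mutant 5 to -0.61 in mutant 2 on the log2 scale. Kcnq1ot1 is annotated as 1 exon of 84395 bases, and counting used no strand option, so that reads from it and from genes on the other strand cannot be told apart.

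Between genotypes, 0 of the 35 members passed the threshold of 0.05 on the adjusted p (edgeR, litter blocked, Benjamini-Hochberg adjustment over all 15821 genes). The share of all genes that passed was 2.18% (345 genes, 111 higher and 234 lower in mutants). With single libraries left out in turn, that count ran from 1 (without control 4 or mutant 5) to 850 (without control 5), and the members called from 0 to 2. Before adjustment, 10 of 35 members (28.6%) had a p under 0.05, where 21.4% of all genes were under that level. Of the 10, 5 had higher means in mutants (Igf2, Kcnq1ot1, Nnat, Snrpn and Ube3a), beside 9.84% of all genes. The other 5 had lower means (Copg2, Grb10, Impact, Peg10 and Rian), beside 11.5% of all genes. DESeq2 called 5 members (Copg2, Ube3a, Igf2, Grb10 and Impact), with 1194 genes in all, and limma-voom called 0, with 439 in all.

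By allele, 8 of the 20 paternally expressed members had a log2 fold change above 0 and 12 below, with a median of -0.06. The 14 maternally expressed ones split 7 and 7, with a median of -0.01. Over all genes 8022 were above 0 and 7799 below, with a median of 0.00. The median size of the log2 fold change, without sign, was 0.20 in the family and 0.18 over all genes. Ube3a was the only member whose control and mutant ranges did not overlap (1 of 35), and 2.59% of all genes had such ranges.

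**Figure D2:**
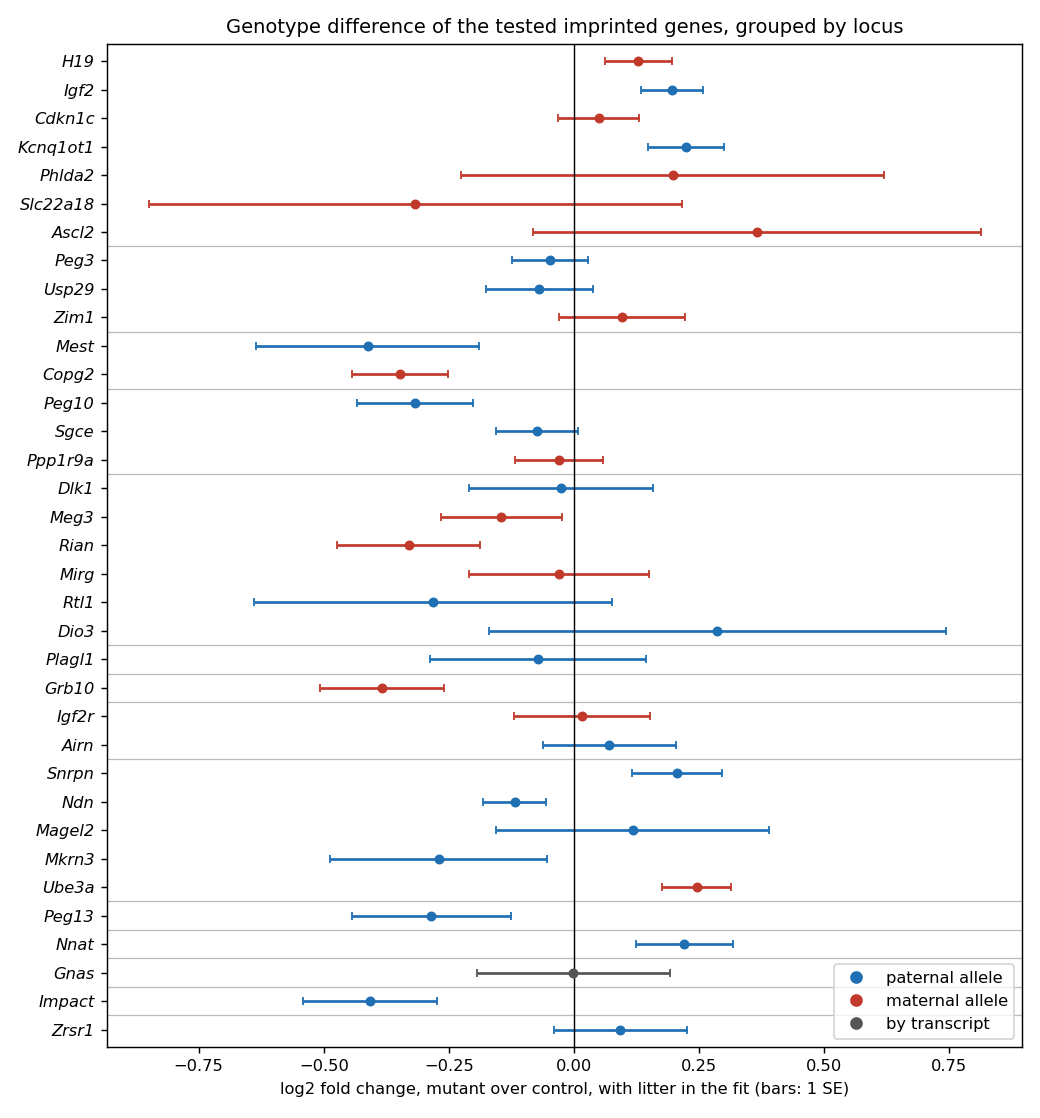
Log2 fold change of mutant over control for the 35 tested imprinted genes with 1 SE on each side, from the fit with litter as a block, grouped by locus and coloured by allele. Values lie on both sides of 0 for both alleles, and the widest bars belong to genes of low count such as Slc22a18 and Dio3.

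Distal chromosome 7 holds the Igf2 and H19 domain and the neighbouring Cdkn1c domain. The fitted log2 fold change was above 0 for 6 of the 7 tested members there, and over all genes for 8022 of 15821. For Cdkn1c, Phlda2 and Ascl2 among the 6, the SE was larger than the value. Igf2 (chr7:142650766-142666816) stood at 973, 977, 947, 932 and 971 CPM in controls 1 to 5 and at 1202, 1170, 1153, 1044, 973 and 1076 CPM in mutants 1 to 6. The controls were close together, and only mutant 5 fell within their range. The means were 960.2 ± 19.5 CPM (SD, n = 5) and 1103 ± 87.0 CPM (SD, n = 6), which gave a fitted log2 ratio of 0.20 (SE 0.06). The edgeR quasi-likelihood test gave an unadjusted p of 0.00833 and an adjusted p of 0.104. The mutant mean was higher in each litter, with log2 differences of 0.28, 0.18, 0.06 and 0.18 from litter A to litter D.

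H19 (chr7:142575529-142578143) shares enhancers with Igf2 from the other parental copy. Its values were 1199.5, 1422, 1187, 1252 and 1312 CPM in controls and 1496, 1499, 1434, 1319, 1307 and 1315 CPM in mutants. The ranges overlapped through controls 2 and 5, and the log2 fold change was 0.13 (SE 0.07, edgeR adjusted p 0.296), higher in all 4 litters. Kcnq1ot1 (chr7:143212155-143296549), which silences the neighbouring Cdkn1c domain on the paternal copy, had 76.9, 64.2, 73.2, 73.1 and 70.4 CPM in controls. In mutants it had 77.9, 80.3, 76.2, 71.8, 90.6 and 101 CPM, with mutants 5 and 6 highest and mutants 3 and 4 within the control range. Its log2 fold change was 0.22 (SE 0.08, edgeR unadjusted p 0.0128, adjusted p 0.127), and it was higher by 0.17, 0.46, 0.31 and 0.07 in litters A to D. Cdkn1c, the cell cycle inhibitor p57, averaged 208 ± 52.7 CPM in controls and 207 ± 50.3 CPM in mutants (log2 fold change 0.05, SE 0.08). Phlda2, Slc22a18 and Ascl2 stayed under 7 CPM in every library, and no genotype difference was detected for them (SE 0.42 to 0.53, edgeR adjusted p 0.692 to 0.834).

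Ube3a (chr7:59228750-59311536), a ubiquitin ligase that is maternally expressed in neurons and uses both copies in most other cells, had the second smallest p. Controls stood at 64.4, 57.7, 63.1, 57.5 and 60.5 CPM and mutants at 74.3, 69.3, 65.2, 66.7, 77.8 and 74.5 CPM. Every mutant lay above every control, although mutant 3 exceeded control 1 by less than 1 CPM. The log2 fold change was 0.25 (SE 0.07, edgeR unadjusted p 0.00373, adjusted p 0.0730), with litter differences of 0.23, 0.24, 0.43 and 0.12. Exons of Ube3a share 27.3% of their bases with other genes, Snhg14 on the other strand among them. Upper-quartile scaling brought Ube3a under the threshold, as did DESeq2.

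The rest of that domain on central chromosome 7 is expressed from the paternal copy. Snrpn, which encodes a small nuclear ribonucleoprotein, had 96.1, 108, 109, 104 and 82.7 CPM in controls and 117, 129, 120.0, 90.1, 99.1 and 123 CPM in mutants. These ranges overlapped widely, and the log2 fold change was 0.21 (SE 0.09, edgeR adjusted p 0.217). Ndn, a MAGE family growth regulator, averaged 151 ± 17.2 CPM in controls and 138 ± 6.19 CPM in mutants (log2 fold change -0.12, SE 0.06, adjusted p 0.303). Magel2 and Mkrn3 were below 5 CPM in all libraries. Nnat on chromosome 2, the most abundant member, had 1580.1, 1397, 1266, 1559 and 1190 CPM in controls and 1717, 1784, 1908, 1426, 1709.8 and 1214 CPM in mutants. Its ranges overlapped, with control 5 and mutant 6 lowest in their groups (log2 fold change 0.22, SE 0.10, adjusted p 0.216).

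Mest and Copg2, neighbours on chromosome 6, both had lower means in mutants. Copg2 (chr6:30747554-30896794) had the smallest p of the family. Its controls stood at 43.2, 36.6, 49.6, 45.3 and 27.3 CPM and its mutants at 30.6, 29.3, 26.1, 29.1, 32.6 and 34.0 CPM. Control 5 lay among the mutants and the other 4 controls above all of them. The log2 fold change was -0.35 (SE 0.10, edgeR unadjusted p 0.00350, adjusted p 0.0714), and the litters gave -0.41, -0.54, -0.47 and 0.01. Without control 5 the value was -0.46 and Copg2 passed the threshold.

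Mest (chr6:30723547-30748465) stood at 1355, 587, 735, 665 and 624 CPM in controls and at 535, 427, 627, 658, 753 and 563 CPM in mutants. Control 1 was far above the other 10 libraries, all of which lay between 427 and 753 CPM. The log2 fold change was -0.41 (SE 0.22, edgeR adjusted p 0.311), and without control 1 it was -0.12. Mest and Copg2 share 912 exon bases on opposite strands, and reads over these bases are left out of both counts by the counting default. The lower values of Copg2 moved with the T-run index, as given below.

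Grb10 (chr11:11930508-12038683) encodes an adaptor that binds and dampens insulin and Igf receptors. Its controls had 864, 749.5, 859, 735 and 544 CPM and its mutants 562, 429.7, 556, 549, 717 and 562 CPM. Control 5 lay among the mutants and mutant 5 reached close to the lower of the other controls. The log2 fold change was -0.38 (SE 0.12, edgeR unadjusted p 0.00924, adjusted p 0.109). The litters differed in size, with -0.71 in A, -0.61 in B, -0.04 in C and 0.02 in D. Without control 5, Grb10 passed the threshold at -0.51.

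Impact on chromosome 18, whose product inhibits the kinase Gcn2, had 195, 223, 166, 209 and 176 CPM in controls and 154, 95.0, 146, 138, 214 and 135 CPM in mutants. Mutant 5 was alone among mutants in reaching the control range, and mutant 2 was lowest. The log2 fold change was -0.41 (SE 0.13, edgeR unadjusted p 0.0101, adjusted p 0.114), with -0.78, -0.30, 0.03 and -0.31 in the 4 litters. Peg10 (chr6:4747306-4760517), a gene derived from a retrotransposon and needed in the placenta, had 253, 259, 217, 223 and 233 CPM in controls. Its mutants had 189, 138, 204, 241, 227 and 173 CPM, so that mutants 4 and 5 lay within the control range and the others below it. The log2 fold change was -0.32 (SE 0.12, edgeR unadjusted p 0.0178, adjusted p 0.149). Its neighbours Sgce and Ppp1r9a had log2 fold changes of -0.07 and -0.03.

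**Figure D3:**
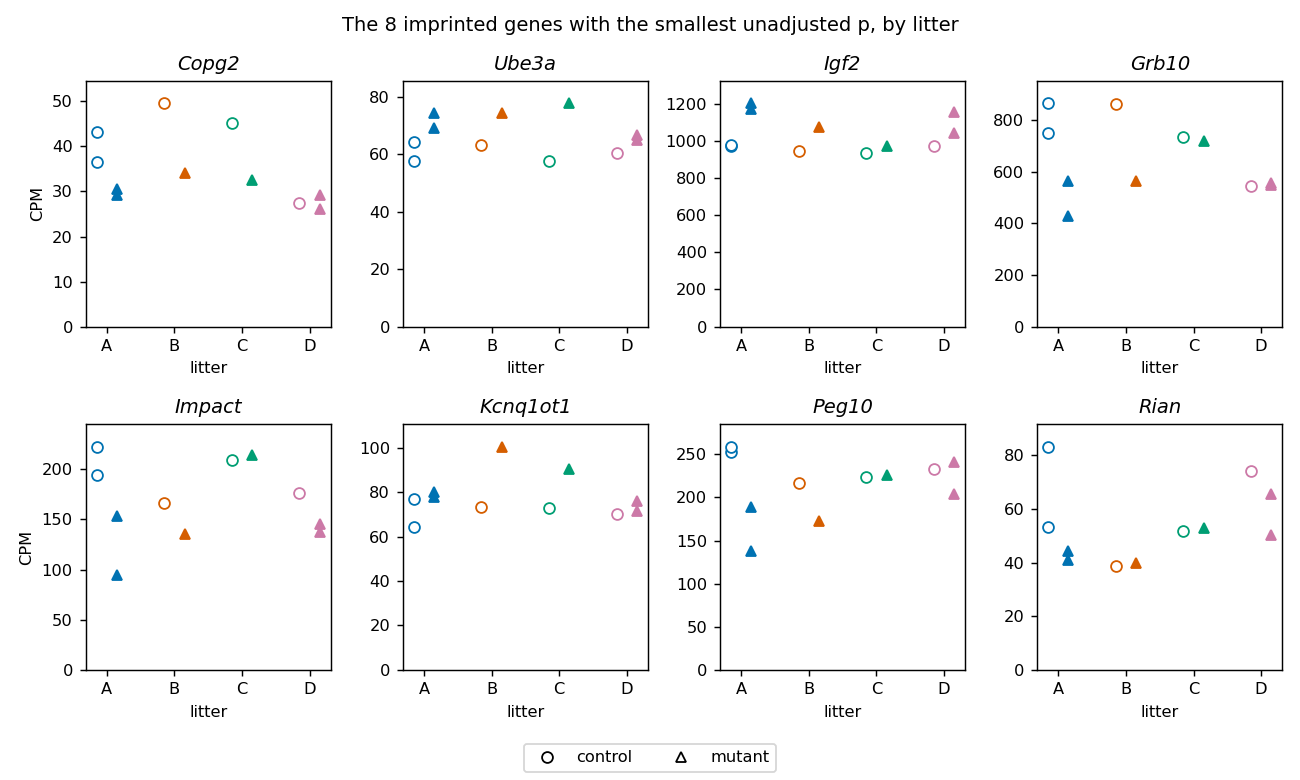
CPM of the 8 imprinted genes with the smallest unadjusted p, by litter, open circles for controls and filled triangles for mutants, each axis starting at 0. For Ube3a, Igf2 and Kcnq1ot1 the mutant mean is above the control mean in all 4 litters, while for Grb10 the separation is in litters A and B.

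The Dlk1 and Dio3 domain on chromosome 12 holds paternally expressed Dlk1, a membrane ligand related to Notch ligands, and the maternally expressed non-coding RNAs Meg3, Rian and Mirg. Dlk1 had 85.7, 117, 39.7, 65.6 and 103 CPM in controls and 85.3, 50.2, 105, 109.8, 93.3 and 54.3 CPM in mutants, with full overlap (log2 fold change -0.03, SE 0.18). Meg3 had 107, 158, 76.4, 94.5 and 174 CPM in controls and 109, 105, 123, 151, 91.8 and 97.9 CPM in mutants (log2 fold change -0.15, SE 0.12). Rian (chr12:109603940-109661716), a host of small nucleolar RNAs, had 53.4, 83.2, 38.7, 51.6 and 74.1 CPM in controls and 41.1, 44.3, 50.4, 65.6, 52.7 and 39.9 CPM in mutants. Its log2 fold change was -0.33 (SE 0.14, edgeR unadjusted p 0.0387, adjusted p 0.211), from -0.64 in litter A and -0.36 in D to 0.04 in B and 0.03 in C. All mutant values of Meg3 and Rian lay within the control range. Mirg, Rtl1 and Dio3 were at 20.5 CPM or less in every library, with log2 fold changes of -0.03, -0.28 and 0.29.

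Other members varied between libraries, and the edgeR unadjusted p between genotypes was above 0.05 for each. Peg3 had 634, 634, 556, 580.2 and 533 CPM in controls and 562, 501, 549, 595, 591 and 595 CPM in mutants (log2 fold change -0.05, SE 0.08). Igf2r had 146, 117, 100.3, 107 and 105 CPM in controls and 121, 79.9, 121, 125, 134 and 118 CPM in mutants (0.02, SE 0.14), and mutant 2 was alone in falling below 100 CPM. Plagl1, a zinc finger transcription factor that acts on other imprinted genes, had 30.1, 62.4, 24.9, 35.03 and 22.0 CPM in controls and 30.5, 29.6, 29.3, 38.0, 32.1 and 30.2 CPM in mutants. Control 2 was its highest library, and the fitted value of -0.07 (SE 0.22) was 0.20 without it. Peg13, a brain-expressed non-coding RNA, had 11.1, 9.68, 12.8, 9.18 and 7.29 CPM in controls and 9.37, 5.36, 6.65, 7.19, 9.50 and 9.26 CPM in mutants (-0.29, SE 0.16, adjusted p 0.326). Zrsr1, which encodes a splicing factor, had 5.59, 5.41, 6.27, 7.09 and 6.17 CPM in controls and 6.19, 6.48, 6.25, 5.77, 5.94 and 8.16 CPM in mutants (0.09, SE 0.13). Gnas had 4.70, 3.29, 2.73, 3.31 and 4.76 CPM in controls and 3.99, 3.18, 3.90, 3.81, 5.40 and 2.76 CPM in mutants (0.00, SE 0.19). Usp29, Zim1 and Airn had log2 fold changes of -0.07, 0.10 and 0.07, each with an SE above its own size.

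In the test on the 3 litter coefficients, 0 members passed at an adjusted p under 0.05, where 0.0885% of all genes did (14 genes). Before adjustment, a p under 0.05 was found for 6 of 35 (Cdkn1c, Meg3, Dlk1, Copg2, Ascl2 and Rian), or 17.1%, against 13.5% of all genes. Cdkn1c came closest, with an unadjusted p of 5.33e-05 and an adjusted p of 0.0536. Its mean log2 CPM was 7.86 in litter A, 8.08 in B, 7.33 in C and 7.34 in D, with control 3 the highest control and mutant 2 the highest mutant. It passed the threshold when genes had to reach 1 CPM in 5 or more libraries. Dlk1, Meg3 and Rian shared an order in which litter B was lowest (5.54, 6.44 and 5.30 on the log2 scale) and litter D highest (6.72, 7.21 and 5.97).

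The interaction of genotype and litter, which asks whether the genotype difference varied between litters, called 0 of 35 members and 0.0% of all genes (edgeR). At an unadjusted p under 0.05 it gave 3 of 35 (Usp29, Grb10 and Slc22a18), or 8.57%, beside 3.82% of all genes. With 3 residual degrees of freedom, it has little power. The genotype difference had the same direction in all 4 litters for 4 of 35 members (11.4%), H19, Igf2, Kcnq1ot1 and Ube3a, all of them higher in mutants. Over all genes tested the share was 26.0% (4115 genes).

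Over 18 pairs chosen by locus and function, 4 (1 in the Igf2 domain and 3 in the Dlk1 domain) had a Pearson correlation of log2 CPM past the threshold (permutation test with 100000 resamples, two-sided, Benjamini-Hochberg over the 18, n = 11). Meg3 and Rian had r = 0.85 (permutation p 0.0015, adjusted p 0.0144) and Meg3 and Mirg had r = 0.84 (permutation p 0.0016, adjusted p 0.0144). Igf2 and H19 had r = 0.81 (permutation p 0.0031, adjusted p 0.0186), and Dlk1 and Meg3 had r = 0.78 (permutation p 0.0062, adjusted p 0.0277). In each pair, libraries high for one gene were high for the other, with control 3 lowest for both in the Meg3 pairs. Spearman's rho for these pairs was 0.68, 0.86, 0.87 and 0.76, with adjusted permutation p of 0.114, 0.0115, 0.0115 and 0.0542. Without the 2 libraries farthest from the median of the first gene, r was 0.68, 0.67, 0.63 and 0.73. Libraries were permuted without regard to genotype or litter, here and for the T-run index below. Differences by genotype or litter that 2 genes share therefore enter these p-values. After litter and genotype were removed, r of the residuals was 0.89, 0.89, 0.56 and 0.61, which was not tested. Without control 3, 0 of the 18 pairs passed the threshold.

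**Figure D4:**
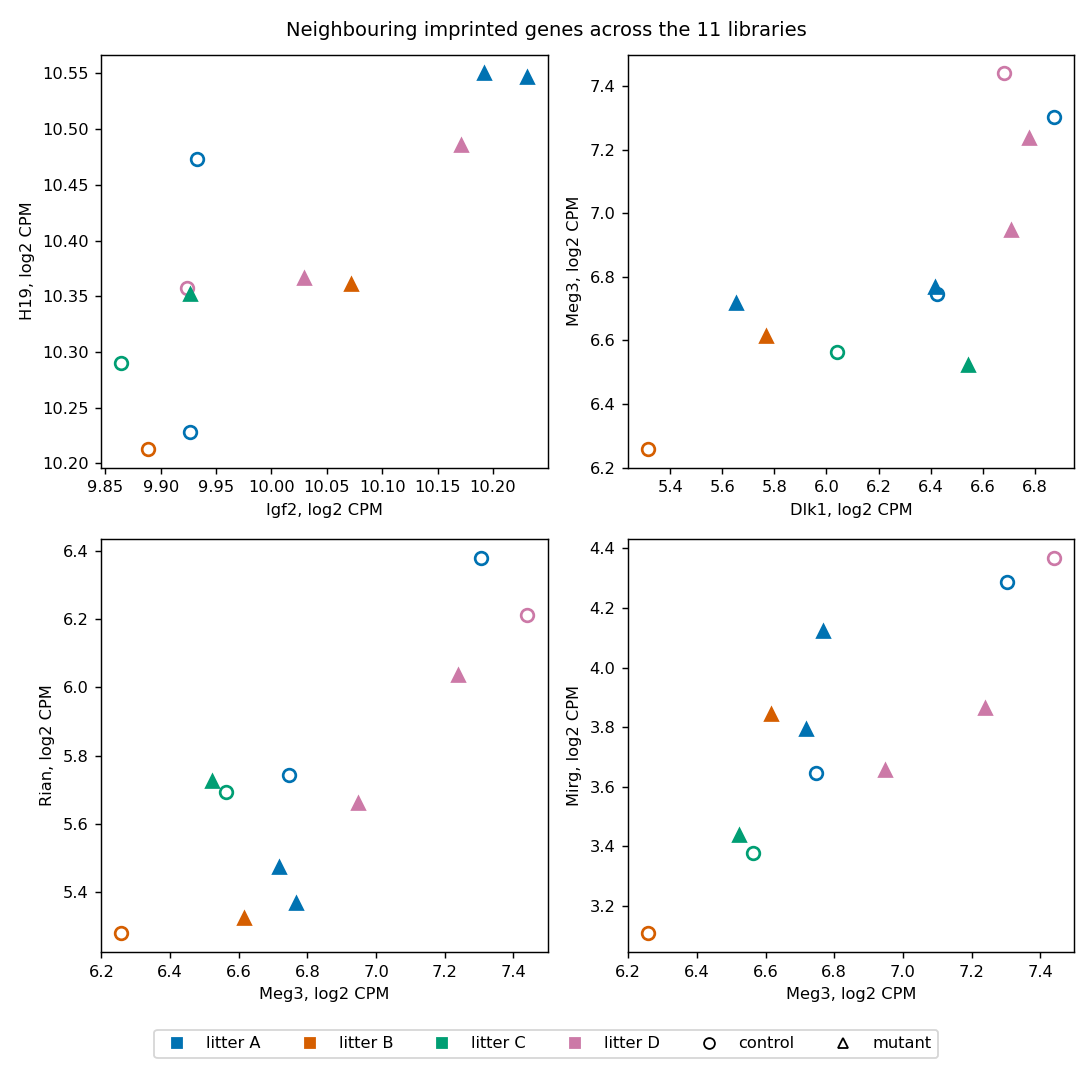
Log2 CPM of 4 pairs of neighbouring imprinted genes across the 11 libraries, open circles for controls and filled triangles for mutants, coloured by litter. Points run from lower left to upper right in all 4 panels, with control 3 (litter B) at the lower left of the 3 panels that hold Meg3.

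Other pairs of the same chromosome regions did not pass. Igf2 and Cdkn1c had r = 0.28, Cdkn1c and Phlda2 -0.42, Dlk1 and Rtl1 0.33, and Rian and Mirg 0.58, with adjusted permutation p of 0.52, 0.398, 0.513 and 0.19. Elsewhere, Peg3 and Usp29, which start back to back, had r = 0.61 (permutation p 0.0447, adjusted p 0.161), and Mest and Copg2 had r = 0.51 (permutation p 0.107, adjusted p 0.241). Igf2r and its antisense RNA Airn had r = -0.52 (permutation p 0.103, adjusted p 0.241), and Cdkn1c and Kcnq1ot1 had r = 0.17 (permutation p 0.614, adjusted p 0.737). Snrpn and Ndn had r = -0.28, and Plagl1 and Igf2 had r = -0.10. Over all 595 pairs of tested members, the median r was 0.276 for the 54 pairs at the same locus and 0.0192 for the 541 pairs at different loci. These medians are descriptive, because all pairs share the same libraries. By allele, the median r was 0.00651 for paternal pairs, 0.0459 for maternal pairs and 0.0375 for mixed pairs.

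The T-run index was correlated with the log2 CPM of each member. Grb10 had r = 0.97 with it (n = 11, permutation p 1e-05, the smallest the resamples can give, adjusted p 0.00035 over 35 members). Peg13 had r = 0.90, Copg2 0.90, Mkrn3 0.84 and Impact 0.79, with adjusted permutation p of 0.0028, 0.00315, 0.0137 and 0.0246. These 5 members (14.3%) passed the threshold, all with r above 0, and the relations were examined after the values had been seen. Of 14831 tested genes outside the family and the index, 14.3% had an r of at least the same size (0.79) in either direction. These genes divided into 1012 with r above 0 and 1116 with r below 0, while the 5 members all had r above 0. The size of 0.79 was that of the weakest of the 5 members, so that the 2 shares are not strictly alike. Spearman's rho was 0.96, 0.88, 0.88, 0.82 and 0.68, with adjusted permutation p of 0.0007, 0.0102, 0.0102, 0.026 and 0.148. Leaving out control 1 and mutant 2, the farthest from the median index, gave r of 0.94, 0.84, 0.93, 0.76 and 0.68. With each genotype centred on its own mean, r was 0.94, 0.89, 0.81, 0.87 and 0.63. Igf2 had the most negative r, at -0.76 (permutation p 0.00992, adjusted p 0.0518). Of the 5 members, Impact alone has a T run of at least 18 bases in its own transcripts (22 bases), and Grb10 has a run of 15. The other 3 members with such runs, 19 bases each, had r of -0.14 (Kcnq1ot1), 0.00 (Rian) and 0.39 (Igf2r).

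**Figure D5:**
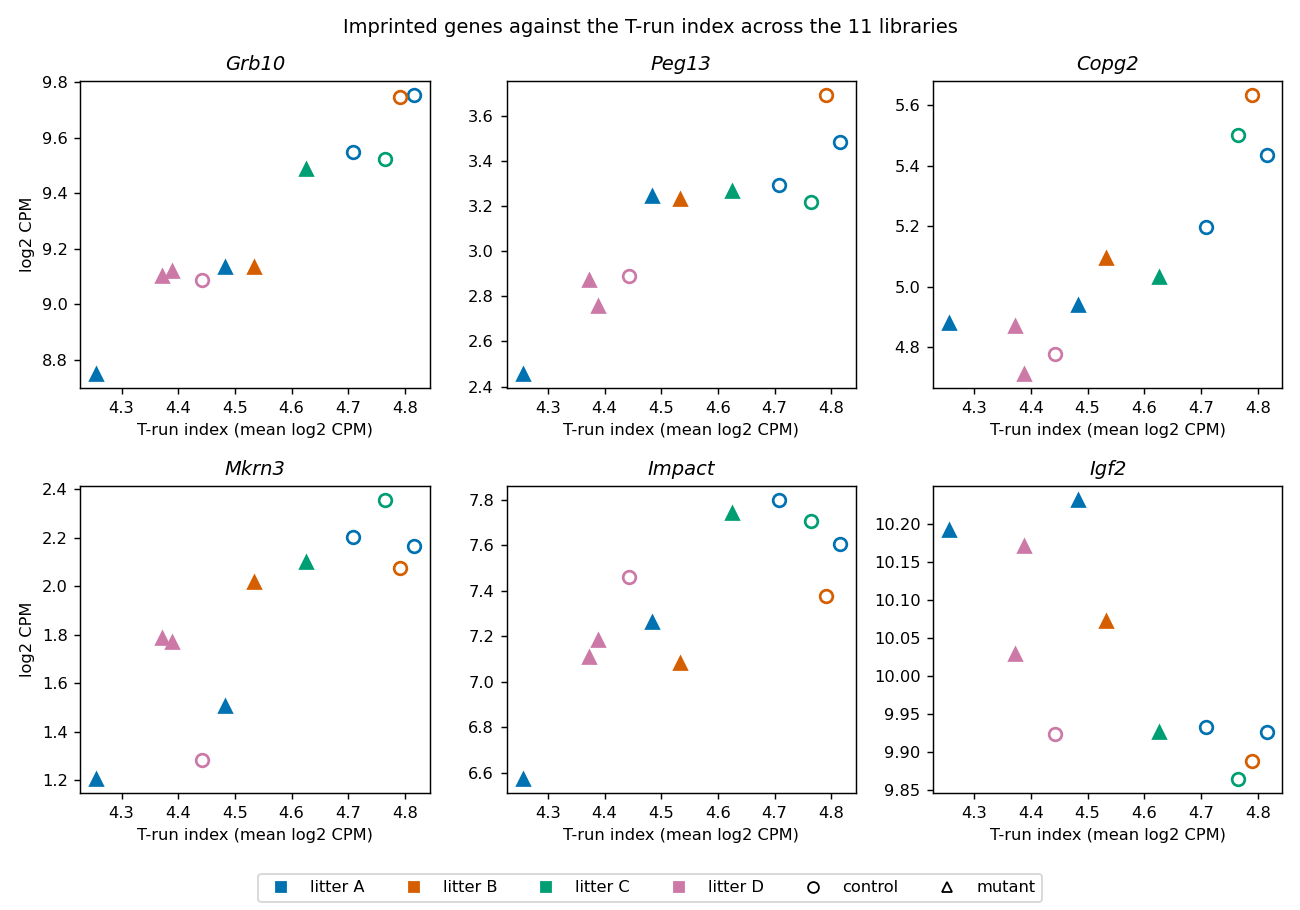
Log2 CPM of Grb10, Peg13, Copg2, Mkrn3, Impact and Igf2 against the T-run index of each library, open circles for controls and filled triangles for mutants, coloured by litter. Grb10 rises with the index through both genotypes, with mutant 2 lowest and control 1 highest for both, while Igf2 runs the other way.

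With the index added to the model, the log2 fold change went from -0.38 to 0.12 for Grb10, from -0.41 to 0.03 for Impact and from -0.35 to -0.16 for Copg2. For Peg13 it went from -0.29 to 0.24 and for Mkrn3 from -0.27 to 0.35. Among members that had not passed, it went for Peg10 from -0.32 to 0.11 and for Mest from -0.41 to 0.40. Igf2 gave 0.15, Ube3a 0.29, Kcnq1ot1 0.23 and Rian -0.29, each near its value without the covariate. Further members moved in either direction. Igf2r went from 0.02 to 0.56, Dlk1 from -0.03 to 0.47, Magel2 from 0.12 to 0.91 and Ascl2 from 0.37 to 1.15. H19 went from 0.13 to 0.03, Phlda2 from 0.20 to -0.36 and Dio3 from 0.29 to -0.44. With the covariate, 0 members were called. All mutants lay below 4 of the 5 controls on the index, so that the covariate also takes up part of the genotype difference. The part of the index in the differences of the members named here was not tested.

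Genes that keep or read imprints, and genes of the Igf pathway, gave 1 call. Of 22 genes for imprint upkeep, 20 were tested and 1 was called, lower in mutants, beside 2.18% of all genes. This was Zfp445, which maintains imprints together with Zfp57. It had 10.3, 8.65, 11.7, 12.2 and 6.03 CPM in controls and 6.25, 3.31, 4.90, 4.28, 6.90 and 5.89 CPM in mutants. Control 5 lay within the mutant range. The means were 9.78 ± 2.51 CPM (SD, n = 5) and 5.26 ± 1.34 CPM (SD, n = 6), and the fit gave -0.82 on the log2 scale (SE 0.17, edgeR adjusted p 0.0454). Without the litter block the adjusted p was 0.0541, and with the index added to the model the log2 fold change was -0.24. Of the 11 fits that leave out 1 library, Zfp445 was called in 2, without control 5 and without mutant 2. Zfp57 had a log2 fold change of -0.21 and Trim28 of 0.22, with adjusted p of 0.227 and 0.0849.

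Among 36 further imprinted genes, 31 were tested and 0 were called by edgeR, with 7 of the 31 at an unadjusted p under 0.05, 2 higher and 5 lower, beside 21.4% of all genes. Their median log2 fold change was -0.03. DESeq2 called 4 of them, beside 1194 of all 15821 genes, and limma-voom 1, beside 439. Peg12, which lies in the Snrpn domain, had the smallest p, with 484 ± 85.9 CPM in controls and 308 ± 85.7 CPM in mutants (log2 fold change -0.61, SE 0.15, adjusted p 0.0546). It holds the longest T run of these 7 genes, 28 bases, and Klf14 (20), Dhcr7 (20) and Inpp5f (18) hold long runs too. All of these were lower in mutants, and genes with such runs are part of the T-run index. Nap1l4, lower as well, and Commd1 and Ano1, both higher, hold runs of 8, 8 and 9 bases. The part of the index in these differences was not tested. The 14 genes of the Igf axis gave 0 calls by edgeR and 3 by DESeq2, with 5 of the 14 at an unadjusted p under 0.05 (21.4% of all genes) and a median log2 fold change of -0.08. Igf2bp1, an RNA-binding protein that binds Igf2 transcripts, had 950.3 ± 142 CPM in controls and 655 ± 153 CPM in mutants (log2 fold change -0.51, edgeR adjusted p 0.0668). Igfbp4, a secreted Igf-binding protein, had 188 and 235 CPM (0.31, edgeR adjusted p 0.0751). Their longest T runs are 19 and 7 bases, so that Igf2bp1 is part of the index.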

How the data were processed

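Ribosomal RNA-depleted total RNA was sequenced, per the labels' protocols. Unnormalised counts by gene name were made by the authors with featureCounts 1.4.6-p4 on the GENCODE M9 annotation at a mapping quality of at least 10, with no strand option, per the file headers. Reads were aligned to mm10, and STAR 2.5.4b is listed, per the submitters' processing notes. The header command lists 12 alignment files and the table has 11 sample columns, with 0 columns left unused.

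Counts were fitted in edgeR 4.0.16 (R 4.3.3): filterByExpr, TMM scaling, quasi-likelihood F test with litter as a block, two-sided, Benjamini-Hochberg over 15821 genes, threshold 0.05. CPM are relative to TMM-scaled totals, and log2 CPM used a prior count of 2. Exon lengths were those in the deposited table. T runs were read from GENCODE M21 transcripts. On simulated counts the fit was tested with known changes. Litters come from the titles and the design text: across genes, deviations from group means had a median correlation of 0.130 over 8 littermate pairs of the 2 genotypes and -0.0199 over 22 pairs across litters. No 2 libraries of a group were alike to within sampling noise (in 25 pairs, chi-square divided by its degrees of freedom was 6.82 or more).

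Members and lists were chosen with earlier results of these data known. Full statistics are given for members past the threshold or, failing that, for the 8 with the smallest p. Values in every library are given for these and for the most abundant member of each locus, and from other lists up to 4 genes past the threshold are named. Further genes of those lists and of the litter and correlation tests were named after their values were seen. Alternatives were RLE and upper-quartile scaling, other filters on low counts, no litter block, the T-run index as covariate, DESeq2 1.42.0, limma-voom (limma 3.58.1), and each library or litter left out.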

Additional observations from a re-analysis of the deposited data

Results flagged for a closer look

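In 7 cases over 70 groups of libraries (35 genes in 2 genotypes), 1 library stood apart from its own group by Dixon's test on log2 CPM, and chance flags about 3.5 of 70. Mest in control 1 had a log2 CPM of 10.4 (1355 CPM against 587 to 735 CPM in the other controls). Sgce in control 2 had 6.40 (84.3 CPM against 66.0 to 70.4 CPM), and Ppp1r9a in control 5 had 6.23 (74.9 CPM against 55.1 to 58.7 CPM). Mkrn3 in control 5 was low at 1.28 (2.31 CPM against 4.09 to 4.996 CPM). Among mutants, Plagl1 in mutant 4 had 5.25 (38.0 CPM against 29.3 to 32.1 CPM) and Zrsr1 in mutant 6 had 3.05 (8.16 CPM against 5.77 to 6.48 CPM). Igf2r in mutant 2 was low at 6.32 (79.9 CPM against 118 to 134 CPM). Mutant 2 also had the lowest T-run index and the highest level of red blood cell genes, and control 5 the lowest index of the controls and the highest level of muscle genes. The part of these library measures in the single values was not tested.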

How the results depend on the processing

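The number of members called between genotypes was 0 in the reported fit. It was 1 (Ube3a) with upper-quartile scaling, 6 without a filter on low counts (Mest, Copg2, Peg10, Rian, Grb10 and Impact) and 5 with DESeq2, and 0 to 2 when 1 library was left out (2, Copg2 and Grb10, without control 5). Over all genes, 345 calls became 1566 without the filter, 550 with at least 1 CPM in 5 libraries, 16 with no replicate block for litter, 2 with the T-run index as covariate and 1194 with DESeq2. Leaving out 1 library gave 1 to 850 calls, and leaving out litter A, B, C or D gave 9, 3, 1 and 148. Upper-quartile scaling gave 360 calls, 43.1% of them higher in mutants against 32.2% as reported, and shifted the median gene to 0.04 on the log2 scale. For further imprinted genes, 0 calls became 6 without the filter, 3 with at least 1 CPM, 4 with DESeq2, 1 with limma-voom and 0 to 2 with 1 library left out. For imprint upkeep, 1 call became 0 with no replicate block, with the covariate, without any 1 litter, and without any 1 library other than control 5 or mutant 2 (range 0 to 1), and 2 with DESeq2. For the Igf axis, 0 calls became 3 without the filter, 3 with DESeq2, 1 without litter D and 0 to 2 with 1 library left out. The litter test called 7 members without the filter, beside 1583 of 29256 genes, and 1 (Cdkn1c) with at least 1 CPM, beside 14 of 13403. The interaction called 4 members without the filter, beside 438 of 29256 genes. Pairs past the threshold were 4, and 0 without control 3, with a range of 0 to 5 over single libraries left out. The sign of the log2 fold change was the same in every other fit that tested the gene, 23 at most, for 13 of the 35 members, H19, Igf2, Kcnq1ot1, Ube3a, Copg2, Meg3 and Rian among them. The cause of these shifts was not tested, beyond fewer libraries in the fits that leave some out. Each genotype has 1 library in litters B and C (mutants) or B, C and D (controls), so that precision rests on few embryos, and genes under about 1 CPM had the widest errors.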
